A study of Mus musculus with 6 samples.

Results

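Glycolysis turns glucose into pyruvate and lactate, and 33 genes of glycolysis and of the response to low oxygen were followed here in mouse dorsal skin over the first 6 days after depilation. They were chosen by symbol for their known roles, with earlier results of these data known, and they sit on 34 of the 32285 gene rows of the count tables, since the symbol Aldoa occurs on 2 rows. The skin came from wildtype male mice of the FVB strain, aged postnatal day 55 to 57, with no transgene or deletion in any group. The back skin of 2 mice per time point was shaved and waxed, a procedure that pulls out the club hairs and starts a new round of hair growth. The skin was collected at 0 h, at 4 h or 16 h, or after 2, 4 or 6 d, each pair of skins was digested with enzyme separately, and equal numbers of cells were mixed into 1 10x Chromium Single Cell 3′ library. There was therefore 1 library per time point, and a difference between time points cannot be told apart from a difference between mice, dissociations or libraries.

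Glucose enters the cell through transporters such as Slc2a1 (GLUT1), is trapped by hexokinases (Hk1, Hk2) and is broken down by Gpi1, the phosphofructokinases, the aldolases, Tpi1, Gapdh, Pgk1, Pgam1, the enolases and Pkm to pyruvate, which Ldha turns into lactate for export by the monocarboxylate carriers Slc16a1 (MCT1) and Slc16a3 (MCT4). The transcription factor subunit encoded by Hif1a is degraded while oxygen is plentiful, through the prolyl hydroxylases encoded by Egln1 and Egln3. When oxygen is scarce it accumulates and binds a short core motif in the promoters of many glycolysis genes and of targets such as Vegfa, Car9, Adm, P4ha1, Ankrd37 and Ndufa4l2. Epidermis lies above the dermal vessels and takes its oxygen by diffusion, and hair follicle cells are known for a high lactate production.

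Because that core motif, ACGTG or GCGTG on either strand, is the sequence that ties most of these genes together, the 250 bases before the start site were read from RefSeq promoters on GRCm38.p6. Of the 33 genes, 32 had a promoter there, and Ndufa4l2 had none. At least 1 start site with the motif was found in 30 of the 32, or 93.8%, and the 2 without it were Gpi1 and Tpi1. The same letters stood before 41.5% of all 27025 genes and before 62.4% of the 9474 genes that could be matched among those tested in interfollicular epidermis. The median count of CpG dinucleotides was 14 in the 32 promoters, 6 over all genes and 16 over the genes tested, so the motif, which holds a CpG, had unequal room to occur in these groups. A match in these letters is a description and not a bound site. The promoters below are those of 2 genes that tell the epidermal layers apart most strongly (Car9 and Slc16a3), of a hypoxia gene that does so in epidermis and follicle (P4ha1), and of 2 enzymes, chosen after their values were seen, that stood above their 0 h level at every later time (Ldha and Pgk1). All 5 lie on the plus strand, with Car9 at chr4:43506776-43507025, Slc16a3 at chr11:120948817-120949066, P4ha1 at chr10:59323046-59323295, Ldha at chr7:46845554-46845803 and Pgk1 at chrX:106186850-106187099, and the capitals mark the motif. Each is written 5′ to 3′ and ends at the base before the start site. In Ldha the palindrome CACGTG was counted on both strands, so 2 pairs of its 5 matches overlap.
Car9: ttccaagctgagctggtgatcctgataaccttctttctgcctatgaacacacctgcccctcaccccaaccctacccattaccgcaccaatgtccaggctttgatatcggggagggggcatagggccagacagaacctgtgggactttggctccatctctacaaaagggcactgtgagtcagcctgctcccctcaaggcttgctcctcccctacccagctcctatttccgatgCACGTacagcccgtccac
Slc16a3: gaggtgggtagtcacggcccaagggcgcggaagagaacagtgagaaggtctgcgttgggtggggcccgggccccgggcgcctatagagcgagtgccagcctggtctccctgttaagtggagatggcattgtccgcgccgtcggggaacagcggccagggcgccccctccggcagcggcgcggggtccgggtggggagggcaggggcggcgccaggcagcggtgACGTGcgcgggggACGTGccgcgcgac
P4ha1: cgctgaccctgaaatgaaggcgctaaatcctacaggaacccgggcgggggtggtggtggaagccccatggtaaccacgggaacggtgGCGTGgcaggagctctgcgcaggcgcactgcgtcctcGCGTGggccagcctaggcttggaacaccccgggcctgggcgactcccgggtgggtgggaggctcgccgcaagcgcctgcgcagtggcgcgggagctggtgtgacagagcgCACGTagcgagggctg
Ldha: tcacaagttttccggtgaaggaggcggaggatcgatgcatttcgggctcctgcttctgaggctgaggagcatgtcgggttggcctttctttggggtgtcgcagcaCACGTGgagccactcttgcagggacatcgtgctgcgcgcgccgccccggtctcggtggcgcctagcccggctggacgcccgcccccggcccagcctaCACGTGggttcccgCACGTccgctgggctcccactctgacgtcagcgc
Pgk1: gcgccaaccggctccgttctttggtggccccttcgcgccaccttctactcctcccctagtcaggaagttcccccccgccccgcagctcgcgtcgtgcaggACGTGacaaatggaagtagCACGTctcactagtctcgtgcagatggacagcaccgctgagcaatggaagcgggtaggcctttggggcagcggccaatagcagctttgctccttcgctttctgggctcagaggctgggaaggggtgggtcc

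The files held 61031 cell barcodes and 72634390 to 112370376 unique molecular identifiers (UMIs, each a counted RNA molecule) per library. After filters on genes, mitochondrial reads and doublets 50502 cells were kept, 6520 to 11032 per library, with a median of 6032 to 10528 UMIs per cell. Cells were clustered without the 33 genes and named from markers, so each name means a cell type-like cluster and the suffix is dropped. The 5 keratinocyte classes were basal and suprabasal interfollicular epidermis (IFE.B and IFE.SB), basal and suprabasal upper hair follicle (uHF.B and uHF.SB) and the outer bulge (OB), which holds the hair follicle stem cells. T cells, Langerhans cells and melanocytes were also compared. Each of these 8 classes showed all of its own 4 to 7 markers in every library. Libraries shared 7 to 47 barcodes per pair. Genes of the dissociation and stress response (Fos, Jun, Hspa1a and 8 others) summed to 22330.5 CPM over all cells at 0 h and to 10291 to 14369 CPM later, and their part in the differences from 0 h was not tested. The share of cycling cells was 18.1%, 7.90%, 25.1%, 25.8%, 34.4% and 23.4% from 0 h to 6 d.

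Most of the glycolysis and hypoxia genes were most abundant in the basal layer of the interfollicular epidermis, while a few had their highest level elsewhere. Levels are given as CPM, the counts per 1000000 summed UMIs of a class, and 6 values in a row always run in the order of time from 0 h to 6 d. By the median over the 6 libraries, IFE.B stood highest of the 5 keratinocyte classes for 25 of the 33 genes, OB for 3 (Hk2, Pfkm and Eno3), uHF.B for 3 (Ldhb, Slc16a1 and Egln3), IFE.SB for Aldoc and uHF.SB for Pfkfb4. For 9 genes (Slc2a1, Gpi1, Pfkp, Pgam1, Pkm, Slc16a3, Egln1, Car9 and P4ha1) IFE.B was highest in all 6 libraries, and OB was so for Hk2. When each library was rescaled so that the median gene was equal between classes, IFE.B stood highest for 24, since Pdk1 moved to IFE.SB, and Pgam1 was no longer highest in all 6. The share of all genes highest in each class is not given here, so whether these counts exceed it is not shown. The rows of the heat map follow the pathway from glucose entry to the hypoxia genes.

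**Figure D1:**
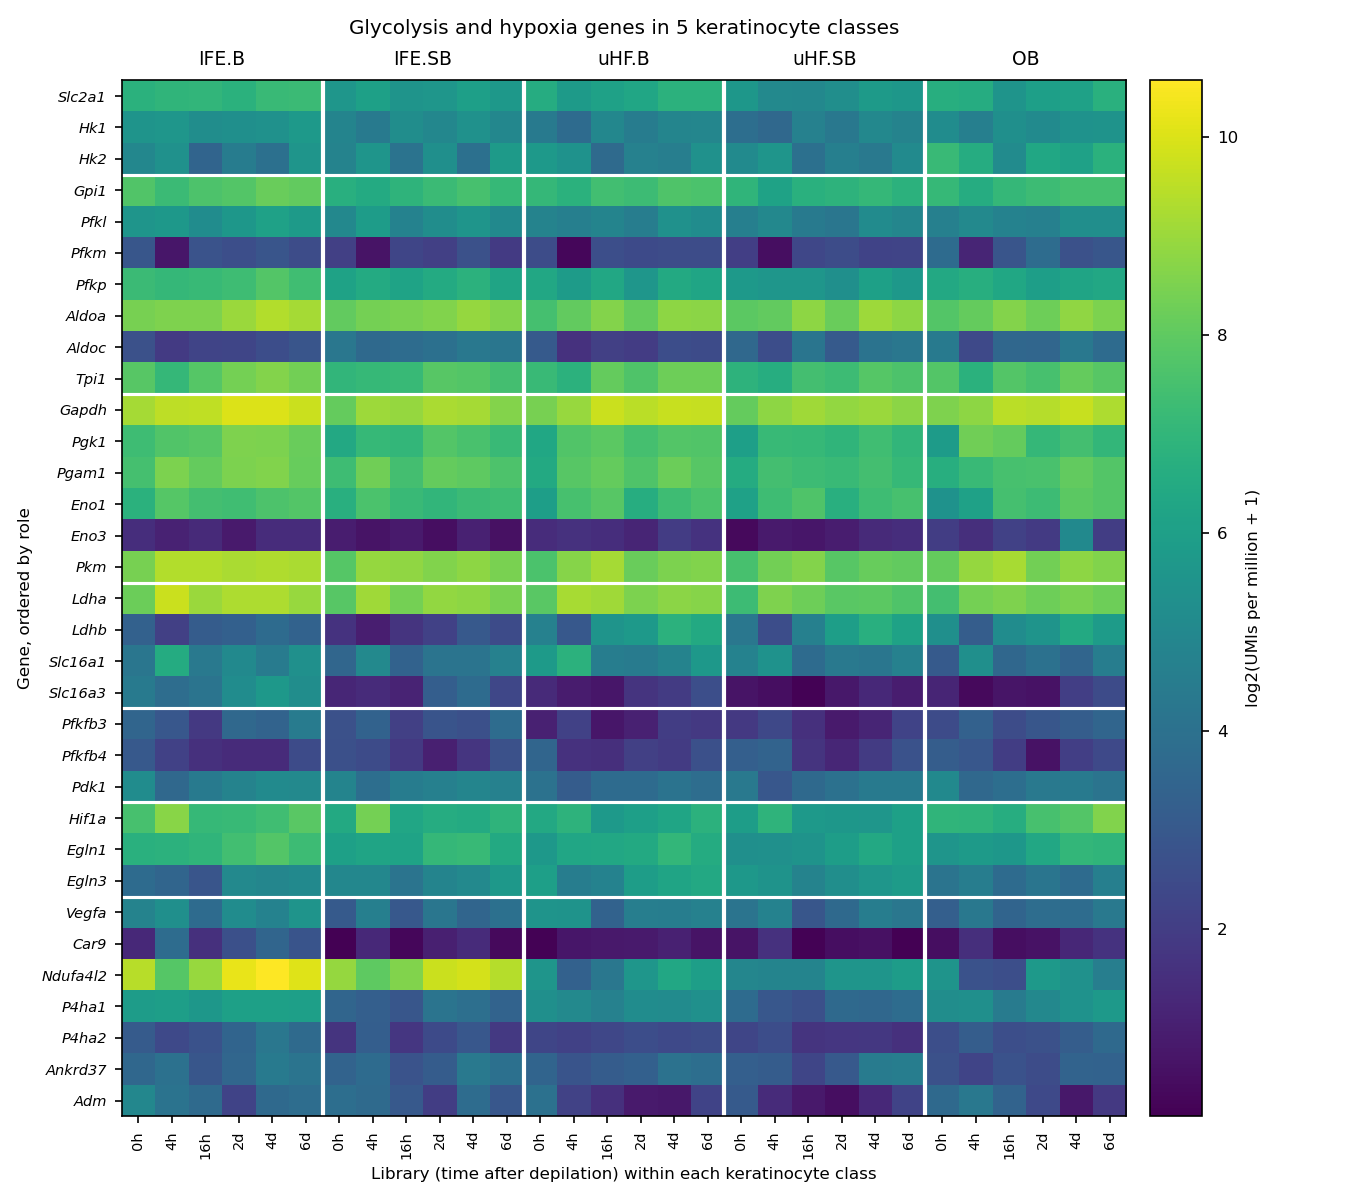
Heat map of the level of the 33 genes (rows, ordered by role) in the 6 libraries (columns) of 5 keratinocyte classes, as log2(CPM + 1). Ndufa4l2 is bright in IFE.B (225 to 1525 CPM) and IFE.SB but not in uHF.B, uHF.SB or OB, and Car9, Slc16a3 and P4ha1 are brighter in IFE.B than in the other 4 classes.

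A wide gap between skin compartments, chosen here after the values were seen, was that of Ndufa4l2, a mitochondrial protein induced by hypoxia that lowers respiration. It stood at 706, 225, 499.7, 1203, 1525 and 1079 CPM in IFE.B and at 482, 253, 387, 864, 952 and 677 CPM in IFE.SB. In uHF.B it stood at 47.0, 9.14, 18.1, 48.5, 82.1 and 61.1 CPM and in OB at 45.3, 5.69, 5.13, 52.9, 41.4 and 22.8 CPM. Every interfollicular value lay above every follicle value, and in IFE.B the 4 h library was the lowest and the 4 d library the highest. After each cell was thinned to 2000 UMIs, which leaves out shallower cells, a Ndufa4l2 UMI was found in 32.0% (95% interval 30.4 to 33.6%) of IFE.B cells at 4 h and in 82.8% (95% interval 81.0 to 84.4%) at 4 d. In T cells, which give the level of free RNA, the share was 1.22% to 6.40%. It was 1.77% to 7.73% in uHF.B, 1.87% to 5.65% in uHF.SB and 0.461% to 6.40% in OB. These follicle ranges overlapped that of T cells over the 6 libraries. Within the 0 h, 4 d and 6 d libraries the uHF.B share lay above that of T cells, without overlap of the intervals. The values were 7.42%, 7.64% and 7.73% against 1.68%, 2.38% and 2.64%. At 4 h it was 1.77% against 1.22%, and at 16 h and 2 d the uHF.B share was the lower one. In uHF.SB and OB the intervals overlapped those of T cells in every library. The part of free RNA in the follicle levels was not tested. Without thinning the IFE.B shares were 71.0% and 92.0%, at median depths of 9012 and 6078 UMIs per cell, and T cells had a median of 2020 to 2702 UMIs. Thinning left out 10 to 73 IFE.B cells and 35 to 397 T cells per library. Intervals here and below are exact and cover counting error only.

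T cells were set apart by Hk2, the inducible hexokinase. Its level was 845, 147, 200.5, 457, 190.4 and 453 CPM in T cells, against 35.2 to 147 CPM in OB and 10.0 to 46.0 CPM in IFE.B. T cells were highest of the 8 classes in all 6 libraries, their 0 h library stood far above their other libraries, and only their 4 h value fell to the highest value of OB (147 CPM each). The thinned share of T cells with a Hk2 UMI was 73.2% (95% interval 66.1 to 79.5%) at 0 h and 22.9% (95% interval 17.8 to 28.6%) at 4 h, and in IFE.B it lay between 1.73% and 8.30%. P4ha2, a collagen prolyl hydroxylase subunit, was also highest in T cells in all 6 libraries, with 102, 77.2, 40.1, 51.5, 38.6 and 42.8 CPM against at most 17.9 CPM in IFE.B. Fibroblast markers summed to at most 3.13 CPM in the same T cells.

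Langerhans cells, the dendritic cells of the epidermis, had the highest median of the 8 classes for 7 genes: Aldoa, Aldoc, Eno3, Pfkfb3, Pfkfb4, Vegfa and Car9. The share of all genes highest in this class is not given here. The sums of Langerhans cells were small, so a few UMIs set the low values, and Car9 rested on 4, 6, 14, 9, 8 and 4 UMIs (7.71 to 24.97 CPM). T cells held 3 Car9 UMIs at 4 d and none in the other libraries, where a count of 0 allows up to 1.68 to 5.26 CPM. Egln3 had no UMI in Langerhans cells in any library, which allows up to 2.88 to 13.7 CPM, whereas uHF.B stood at 22.3 to 85.7 CPM. Melanocytes had the highest median for Hk1, the housekeeping hexokinase (12.5 to 82.9 CPM), and for Ldhb, the heart-type lactate dehydrogenase subunit (39.2 to 149.6 CPM).

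RNA of the enzyme genes Gpi1, Tpi1, Gapdh, Eno1, Pkm and Aldoa was present in every class, and over the 6 libraries their ranges in IFE.B and OB overlapped. In IFE.B, Gpi1 stood at 152 to 289 CPM, Tpi1 at 136 to 396, Gapdh at 575 to 1046, Eno1 at 109 to 225, Pkm at 339 to 661 and Aldoa at 341 to 653. In OB the same genes stood at 95.1 to 180.0, 111 to 271, 379 to 837, 42.7 to 242, 277 to 595 and 220.3 to 459 CPM, with overlapping ranges for each of the 6. Within a library IFE.B stood above OB in 6 of 6 for Gpi1, Tpi1, Gapdh and Pkm, in 5 of 6 for Aldoa and in 3 of 6 for Eno1. The liver, muscle and platelet forms of phosphofructokinase stood at 36.0 to 66.9 (Pfkl), 0.675 to 6.54 (Pfkm) and 135 to 215 CPM (Pfkp) in IFE.B. The second row named Aldoa held 0 or 1 UMI in IFE.B in every library, and only the first is used. Reads of Aldoa and Eno1 may also be split with the near-identical copies Aldoart1 and Eno1b, so their levels are uncertain. Among the regulators, Egln1 stood at 105 to 215 CPM in IFE.B and 46.6 to 130.2 CPM in OB, Pdk1 at 11.7 to 36.2 and 11.4 to 32.3 CPM, and Pfkfb4, a relative of Pfkfb3, at 1.62 to 7.16 and 0.546 to 8.19 CPM. Ankrd37, a small hypoxia-induced protein, stood at 6.47 to 20.2 and 3.79 to 9.83 CPM. Eno3, the muscle enolase, stood at most at 3.42 CPM in the keratinocyte classes except at 4 d in OB.

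Suprabasal interfollicular cells, which have left the basal layer to differentiate, held less RNA of most glycolysis and hypoxia genes than basal cells. All 33 genes were tested between IFE.SB and IFE.B over the 6 libraries, with the library as a block. The test, edgeR's quasi-likelihood test at an adjusted p under 0.05, called 21 genes lower and 3 higher (Aldoc, Egln3 and Hk2) in IFE.SB. That was 63.6% and 9.09% of the genes, against 34.3% and 30.7% of all 12222 genes tested, and the median log2 difference was -0.42 against -0.04. By role, all 4 lactate genes, 5 of 7 hypoxia-induced genes and 5 of 6 enzymes from Gapdh to Pkm were lower, whereas none of the 3 flux regulators (Pfkfb3, Pfkfb4 and Pdk1) passed the test.

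Car9, the carbonic anhydrase that handles acid outside the cell, stood at 1.51, 13.0, 1.98, 5.31, 10.6 and 6.08 CPM in IFE.B and at 0.0808, 1.46, 0.23, 1.07, 1.61 and 0.306 CPM in IFE.SB. Slc16a3, the lactate exporter of strongly glycolytic cells, stood at 19.7, 13.6, 16.8, 36.2, 50.8 and 36.5 CPM in IFE.B and at 1.37, 1.68, 1.23, 8.49, 12.7 and 4.08 CPM in IFE.SB. P4ha1, a collagen prolyl hydroxylase subunit, stood at 58.5, 61.5, 49.7, 66.6, 65.3 and 63.3 CPM and at 10.5, 8.76, 6.53, 16.5, 14.1 and 9.84 CPM. The Car9 values of IFE.SB rested on 2, 27, 6, 25, 9 and 6 UMIs. All 3 were lower in IFE.SB in 6 of 6 libraries, and the values of the layers did not overlap for Slc16a3 and P4ha1. Their log2 differences were -2.91 ± 0.26 (SE, n = 6 libraries) for Car9, -2.69 ± 0.32 for Slc16a3 and -2.32 ± 0.15 for P4ha1, with edgeR adjusted p of 1.03e-05, 3.35e-05 and 1.55e-06. Markers of basal cells still summed to 3916 to 15881 CPM in IFE.SB, against 23899 to 40414 CPM in IFE.B. Cycling cells made up 3.70% to 13.5% of IFE.SB and 8.30% to 31.9% of IFE.B, and the part of both in these differences was not tested.

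The glucose transporter Slc2a1 followed the same order, with 109.5, 123, 125, 109.8, 145 and 150.1 CPM in IFE.B and 47.8, 65.0, 45.4, 47.9, 64.6 and 51.1 CPM in IFE.SB. Ldhb stood at 9.36, 3.28, 7.98, 9.04, 12.6 and 9.58 CPM and at 2.10, 0.973, 2.23, 3.39, 7.16 and 4.64 CPM. The vascular growth factor Vegfa stood at 26.5, 39.1, 12.6, 35.3, 26.1 and 45.5 CPM and at 7.35, 23.8, 6.99, 17.5, 10.4 and 14.7 CPM. Within each library the suprabasal value was the lower one for all 3 genes, but only the Slc2a1 ranges did not overlap. The log2 differences were -1.05 ± 0.06 for Slc2a1, -1.28 ± 0.22 for Ldhb and -1.02 ± 0.16 for Vegfa (SE, n = 6, edgeR adjusted p = 3.57e-06, 0.000345 and 0.000222). Among the other lower genes, the drop was smallest for Pgam1 (-0.21), Ldha (-0.31) and Pkm (-0.38), on a log2 scale.

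Aldoc, the aldolase form best known from brain, was the exception in size. It stood at 5.47, 2.73, 3.73, 3.88, 4.99 and 6.21 CPM in IFE.B and at 18.1, 11.999, 13.2, 14.9, 19.0 and 17.4 CPM in IFE.SB, with no overlap. Its log2 difference was 2.04 ± 0.06 (edgeR adjusted p = 2.17e-07). Egln3, a prolyl hydroxylase that is itself induced by hypoxia, was higher in IFE.SB by 1.00 ± 0.28 and Hk2 by 0.51 ± 0.17 on the log2 scale, both in 6 of 6 scaled libraries. Unscaled, Egln3 stood at 12.7, 10.4, 6.26, 32.2, 29.0 and 32.5 CPM in IFE.B and at 29.8, 30.2, 16.7, 27.7, 31.5 and 50.9 CPM in IFE.SB, so at 2 d its suprabasal level was the lower one. Unscaled, Hk2 was higher in IFE.SB in 4 of 6 libraries, the exceptions being 0 h and 4 d. On the CPM scale the median gene was itself lower in IFE.SB by a log2 value of -0.37 to -0.12 across libraries, and after its removal no gene of the 24 called changed direction.

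In the upper hair follicle, too, suprabasal cells held less RNA of several of these genes than basal cells. Between uHF.SB and uHF.B, 31 of the 33 genes had enough counts (Slc16a3 and Car9 did not), and 13 were lower and 3 higher (Aldoc, Pdk1 and Aldoa) in uHF.SB. These were 41.9% and 9.68% of the genes tested, against 31.1% and 29.2% of all 11135 genes, and the median log2 difference was -0.23 against -0.02. P4ha1 stood at 39.4, 32.1, 25.5, 35.7, 34.9 and 39.7 CPM in uHF.B and at 12.8, 6.63, 5.36, 11.97, 11.01 and 13.0 CPM in uHF.SB, without overlap. Aldoc stood at 7.43, 2.01, 3.23, 2.95, 5.04 and 4.71 CPM in uHF.B and at 11.4, 4.98, 17.3, 7.41, 16.3 and 18.3 CPM in uHF.SB, higher in uHF.SB within each library. The log2 differences were -1.61 ± 0.16 for P4ha1 and 1.79 ± 0.27 for Aldoc (SE, n = 6, edgeR adjusted p = 1.79e-06 and 5.78e-05). Pdk1, the kinase that shuts off pyruvate dehydrogenase, was higher by 0.40 ± 0.15, and Aldoa by 0.30 ± 0.07. Slc2a1 was lower by a log2 difference of -0.88 ± 0.03, Slc16a1 of -0.72 ± 0.20 and Ldha of -0.61 ± 0.04. The median gene on the CPM scale was lower in uHF.SB by a log2 value of -0.28 to -0.08, and no gene of the 16 called changed direction when it was set to 0. Cycling cells made up 3.75% to 11.1% of uHF.SB and 8.67% to 46.1% of uHF.B, and their part was not tested.

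**Figure D2:**
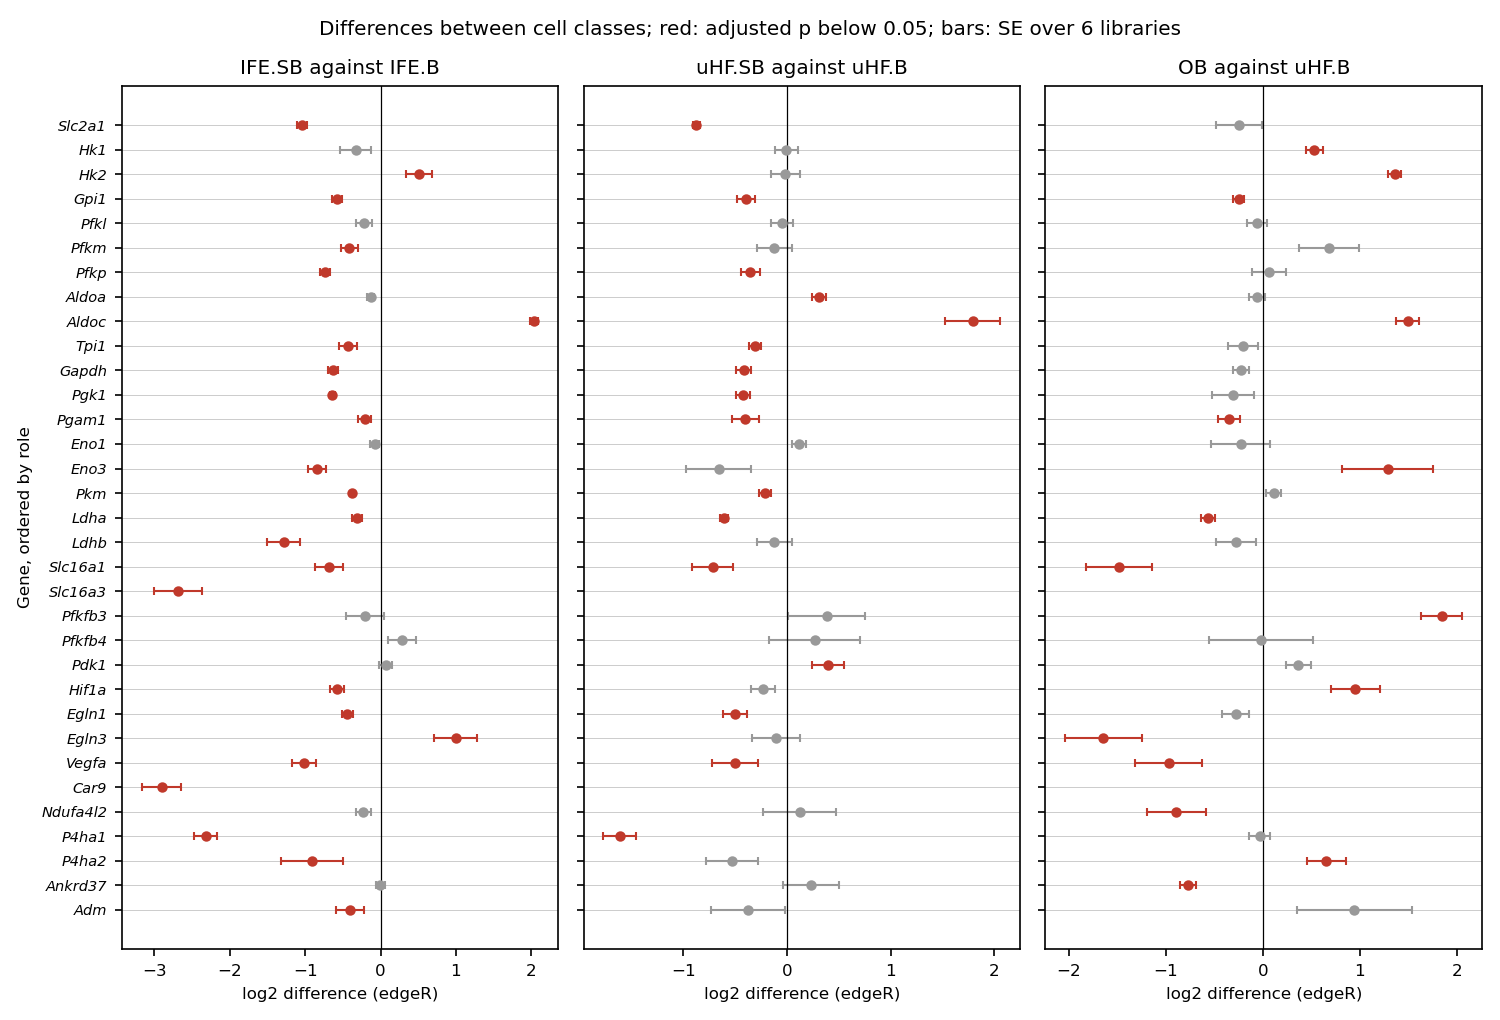
Log2 difference (x axis, edgeR) of each gene (y axis, ordered by role) for IFE.SB against IFE.B, uHF.SB against uHF.B and OB against uHF.B, with bars for the SE over 6 libraries and red points for an adjusted p under 0.05. Aldoc lies to the right of 0 in all 3 panels (2.04, 1.79 and 1.49), and Car9, Slc16a3 and P4ha1 lie farthest to the left in the first.

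Outer bulge cells carried more RNA of the hexokinases Hk1 and Hk2 and of the flux regulator Pfkfb3, and less RNA of the lactate carrier Slc16a1 and of Egln3 than the basal cells of the upper follicle above them. Of 31 genes tested between OB and uHF.B, 7 were higher and 8 lower in OB, or 22.6% and 25.8%, against 19.5% and 20.4% of all 10765 genes, so the genes were called about as often as the background. Without the 4 d library 5 were lower. The median log2 difference was -0.06, against -0.01 for all genes. The higher genes were Pfkfb3, Aldoc, Hk2, Eno3, Hif1a, P4ha2 and Hk1, and the lower ones Egln3, Slc16a1, Vegfa, Ndufa4l2, Ankrd37, Ldha, Pgam1 and Gpi1. Over the 6 libraries the thinned Ndufa4l2 shares of both classes overlapped the T cell range. Within the 0 h, 4 d and 6 d libraries the uHF.B share lay above that of T cells.

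Hk2 stood at 147, 95.8, 35.2, 80.2, 68.1 and 111 CPM in OB and at 53.7, 42.1, 12.1, 25.01, 23.0 and 41.8 CPM in uHF.B. Pfkfb3, which makes the activator of phosphofructokinase, stood at 4.74, 9.17, 4.91, 6.55, 8.07 and 10.5 CPM in OB and at 1.12, 3.34, 0.685, 1.12, 3.07 and 2.65 CPM in uHF.B. Aldoc stood at 19.8, 4.43, 11.1, 10.9, 18.6 and 12.7 CPM and at 7.43, 2.01, 3.23, 2.95, 5.04 and 4.71 CPM. All 3 were higher in OB within 6 of 6 libraries, and the classes did not overlap for Pfkfb3. The log2 differences were 1.36 ± 0.06 for Hk2, 1.84 ± 0.21 for Pfkfb3 and 1.49 ± 0.12 for Aldoc (SE, n = 6, edgeR adjusted p = 4.71e-06, 0.000299 and 8.02e-05).

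On the lower side, Egln3 stood at 16.4, 22.4, 12.8, 16.9, 12.6 and 23.9 CPM in OB and at 64.6, 22.3, 26.0, 59.8, 73.3 and 85.7 CPM in uHF.B. Slc16a1, which carries lactate and pyruvate both ways, stood at 7.33, 39.5, 11.3, 15.3, 10.5 and 22.4 CPM and at 55.8, 112, 22.6, 21.2, 26.9 and 51.0 CPM. Both were lower in OB in 6 of 6 libraries after scaling, with near-equal Egln3 levels at 4 h. Their log2 differences were -1.64 ± 0.39 and -1.48 ± 0.34 (SE, n = 6, edgeR adjusted p = 0.00351 and 0.00136). Hif1a itself was higher in OB by 0.95 ± 0.25, with 124, 121, 97.8, 183, 218 and 387 CPM in OB and 86.2, 117, 51.9, 62.9, 76.2 and 113 CPM in uHF.B. The gap for Hif1a was widest at 6 d. The OB class changed its make-up, since a subcluster led by Serpinb2 held 271 of its 697 cells at 4 h and 33 of 433 at 0 h, and markers of the inner bulge summed to 4227 CPM in OB at 4 h and to at most 1900.4 CPM at the other times. With only the subclusters that carry bulge names, 7 genes were higher and 10 lower, and P4ha2 was no longer called (log2 difference 0.61, edgeR adjusted p = 0.0631).

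The call for Eno3 rested on 1 cell. Eno3 stood at 3.02, 1.90, 3.42, 2.73, 32.6 and 3.01 CPM in OB and at 1.68, 2.01, 1.76, 1.26, 2.95 and 2.16 CPM in uHF.B, and 1 OB cell at 4 d held 80 of the 93 UMIs in that library. The same cell held 1730 of the 1750 UMIs of skeletal muscle markers in OB at 4 d and showed 5 of 5 of them. Those markers summed to 614 CPM in OB at 4 d and to at most 4.70 CPM at the other times. Without the cell OB stood at 4.58 CPM at 4 d, and the log2 difference of Eno3 was 0.541 in place of 1.28, with an edgeR adjusted p of 0.102 in place of 0.0461.

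Genes of neighbouring pathways were counted in the same tests. Of all genes, 30.7% were higher and 34.3% lower in IFE.SB, 29.2% and 31.1% in uHF.SB, and 19.5% and 20.4% in OB. The lists are short, and whether they exceed these shares was not tested. The pentose phosphate pathway, which makes NADPH, had 3 of 7 genes higher and 1 lower in IFE.SB, led by its entry enzyme G6pdx (1.31 ± 0.11) and Pgd (1.12 ± 0.10), had 3 higher and 2 lower in uHF.SB, and had 4 lower in OB. Of 8 genes of gluconeogenesis and glycogen, 7 were lower in IFE.SB and 7 in uHF.SB, among them glycogen synthase Gys1 (-1.20 ± 0.22 and -1.30 ± 0.25), and in OB 2 were higher and 1 lower. Around pyruvate dehydrogenase, 7 of 11 genes were lower in IFE.SB (the phosphatase Pdp2 by -1.38), 7 of 12 in uHF.SB (the kinase Pdk3 by -1.21), and 6 of 11 in OB, where the kinase Pdk2 was the 1 higher gene (1.56 ± 0.28). Other isoforms of the pathway gave 1 higher and 3 lower of 8 in IFE.SB (the sperm-type Gapdhs 2.51, the carrier Slc16a7 -2.09), 1 higher and 2 lower of 7 in uHF.SB (Slc16a7 -1.81, Ldhd -1.34), and 2 higher of 6 in OB (Slc16a7 1.69). All values are log2 differences with an edgeR adjusted p under 0.05.

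Another 6 regulators of the hypoxia factors could be tested, and in each contrast both directions occurred. Cited2, which competes with the hypoxia factors for their coactivator, was higher in IFE.SB (1.69 ± 0.15), in uHF.SB (1.19 ± 0.24) and in OB (1.90 ± 0.24). Epas1, the alpha subunit related to Hif1a, was lower in OB (-3.39 ± 0.38). In all, 2 were higher and 2 lower in IFE.SB and in uHF.SB, and 3 were higher and 1 lower in OB. Among other hypoxia-induced genes, 4 were higher and 7 lower of 17 in IFE.SB, 6 higher and 9 lower of 17 in uHF.SB, and 3 higher and 5 lower of 18 in OB. The background for these counts is the same share of all genes in each contrast. Angptl4, an inhibitor of lipoprotein lipase, was lower in IFE.SB and uHF.SB (-2.02 and -2.18). The haem oxygenase Hmox1 was higher in both (2.89 and 1.15), and the carbonic anhydrase Car12 was lower in all 3 contrasts (-2.04, -1.37 and -1.57). In OB the glycogen-targeting subunit Ppp1r3c was higher (4.89 ± 0.36) and Ndrg1 was higher (1.24), while the clock repressor Bhlhe40 was lower (-1.58).

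Cycling and non-cycling cells of the same class and library were compared because the share of cycling cells differed between time points. A cell counted as cycling when it held at least 2 UMIs of 10 cycling markers after thinning to 2000 UMIs. In both IFE.B and uHF.B, cycling cells held more RNA of Tpi1, Gapdh and Pgk1 and less of the aldolases, Hk2, Slc2a1, Gpi1, Hif1a and Vegfa. In IFE.B 33 genes were tested, and 7 were higher and 10 lower, or 21.2% and 30.3%, against 19.1% and 26.1% of all 11121 genes. In uHF.B 28 were tested, and 4 were higher and 9 lower, or 14.3% and 32.1%, against 14.5% and 19.7% of 10300 genes. The genes were thus called about as often as the background in IFE.B, and in uHF.B so for the higher side. The medians were -0.11 in IFE.B and -0.17 in uHF.B on the log2 scale, against -0.05 and -0.07 for all genes. Without the 4 d library 3 genes were higher in IFE.B and 2 in uHF.B, and without the 16 h library 4 were higher in IFE.B.

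Aldoc differed most. In IFE.B it stood at 2.35, 1.80, 1.95, 2.64, 3.53 and 4.01 CPM in cycling and at 6.51, 2.85, 4.83, 4.56, 5.79 and 7.23 CPM in non-cycling cells. The cycling value was lower in 6 of 6 libraries, and the log2 difference was -1.12 ± 0.14 (SE, n = 6, edgeR adjusted p = 1.13e-05), the only one of these genes past 1. Tpi1, which interconverts the triose phosphates, was higher by 0.48 ± 0.08 in IFE.B and by 0.34 ± 0.05 in uHF.B, in 6 of 6 libraries of each. Gapdh was higher by 0.23 ± 0.04 and 0.15 ± 0.06, and Pgk1 by 0.22 ± 0.05 and 0.20 ± 0.10. Aldoa was lower by a log2 difference of -0.67 ± 0.07 and -0.67 ± 0.06, and Hk2 of -0.55 ± 0.05 and -0.67 ± 0.17. Slc16a3, Car9, Pfkfb4 and Pgam1 were higher and Adm, Pdk1 and Pfkp lower in cycling IFE.B, and in uHF.B Ldhb was higher and Pfkm and Pfkl lower.

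In OB, where 2.61% to 18.0% of cells were cycling, 24 genes were tested, none was higher and Aldoa was lower by a log2 difference of -0.47 ± 0.16 (edgeR adjusted p = 0.0218), or 4.17% of the genes, against 1.73% of 8073 genes lower and 2.49% higher. At an unadjusted p under 0.05 there were 3 genes, against 15.7% of all genes, and DESeq2 called 0 in either direction. Outside the 33 genes, Pck2, the mitochondrial enzyme that makes phosphoenolpyruvate, was higher in cycling IFE.B (1.11 ± 0.19), and the kinase Pdk4 (-1.04 ± 0.36) and Hmox1 (-1.08 ± 0.31) were lower in cycling uHF.B. Of 17 further hypoxia-induced genes, 2 were higher and 10 lower in cycling IFE.B, and 2 higher and 9 lower in cycling uHF.B. Of all genes, 19.1% were higher and 26.1% lower in cycling IFE.B, and 14.5% and 19.7% in cycling uHF.B. The pentose phosphate genes gave 1 higher and 2 lower of 7 in each class, and pyruvate dehydrogenase genes 1 higher and 1 lower (of 11 in IFE.B and 12 in uHF.B). Of 8 gluconeogenesis and glycogen genes, 1 was higher in each class, and 1 in IFE.B and 3 in uHF.B were lower. Other isoforms and other hypoxia regulators gave 0 higher and 1 lower of 6 in each class. In OB edgeR called 0 genes of these lists, where 3 hypoxia-induced genes and 1 regulator had an unadjusted p under 0.05.

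**Figure D3:**
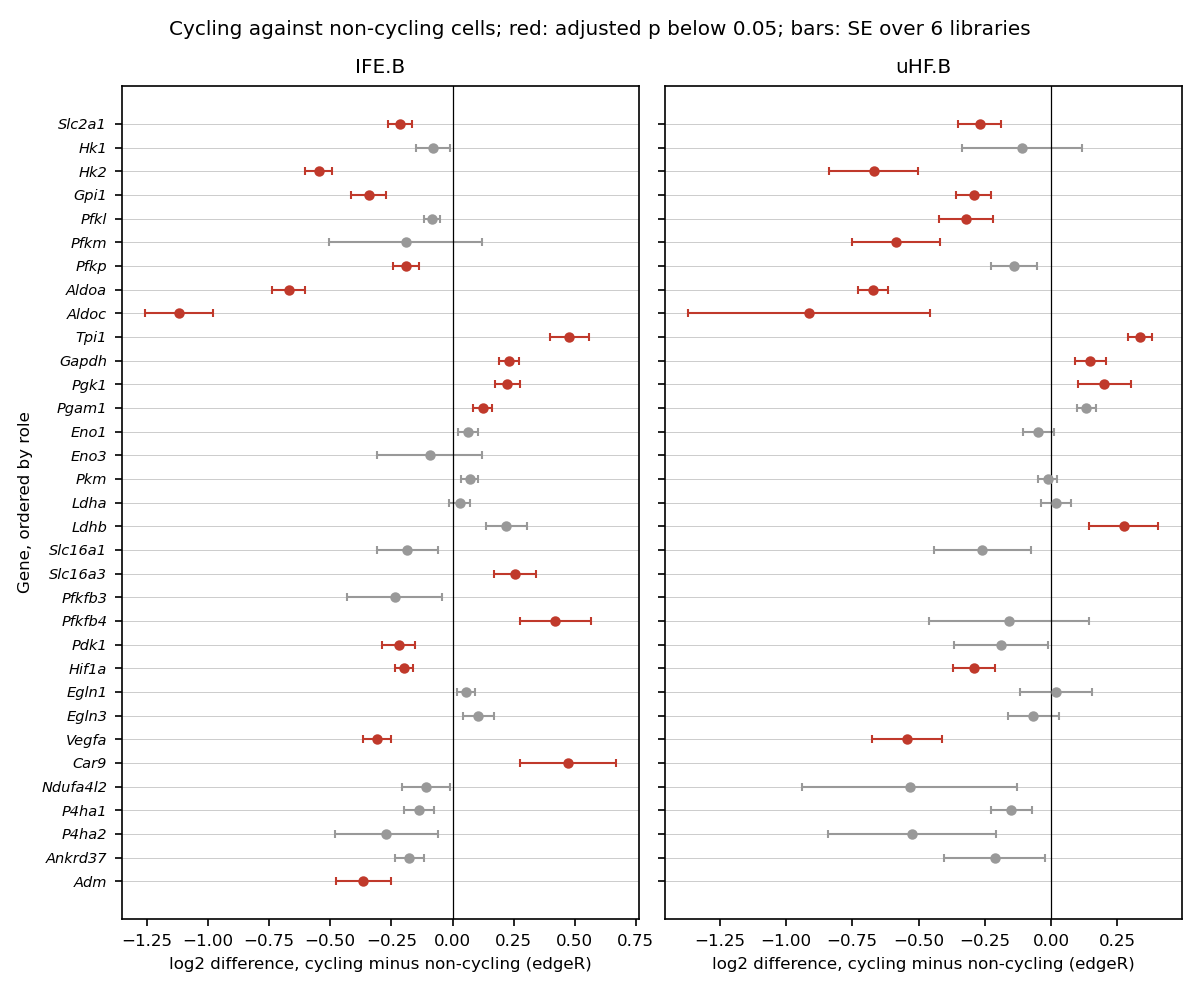
Log2 difference between cycling and non-cycling cells (x axis, edgeR) for each gene (y axis, ordered by role) in IFE.B and uHF.B, with bars for the SE over 6 libraries and red points for an adjusted p under 0.05. The aldolases and Hk2 lie to the left of 0 and Tpi1 to the right in both panels.

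After depilation 7 enzymes, Aldoa, Gapdh, Pgk1, Pgam1, Eno1, Pkm and Ldha, stood above their 0 h level in all 5 keratinocyte classes at every later time, while Adm stood below it in all 5 classes from 16 h on. With TMM scaling (a scaling to the typical gene) this held except for Aldoa at 4 h. The hydroxylase gene Egln1 also stood above 0 h in all 5 classes at every later time on the CPM scale. With TMM scaling it did so in 4 classes at 4 h and in 3 at 16 h. At 4 h, 10 of the 33 genes were above 0 h in all 5 classes (Eno1, Gapdh, Ldha, Aldoa, Pkm, Pgam1, Pgk1, Egln1, Slc16a1 and Car9) and 6 below (Pdk1, Ldhb, Gpi1, Ndufa4l2, Aldoc and Pfkm). The counts above and below were 8 and 9 at 16 h, 9 and 5 at 2 d, 14 and 3 at 4 d, and 18 and 1 (Adm) at 6 d. With TMM scaling in place of CPM they were 8 and 6, 7 and 14, 9 and 4, 12 and 4, and 16 and 1. The median gene shifted by a log2 value of -0.14 to 0.36 from 0 h on the CPM scale, depending on class and time. These are directions of single libraries against the same 0 h library and carry no test. The share of all genes with 1 direction in all 5 classes is not given here. Whether these counts, or that of the 7 enzymes, exceed the background is therefore not shown. Stress genes summed to 26823 CPM in IFE.B, 29191 in uHF.B and 32522 in OB at 0 h, and to 13569 to 23203, 8330.3 to 12399 and 8833 to 14392 CPM later, and their part was not tested.

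Pgk1, which makes the first ATP of the pathway, stood at 161, 209.6, 233, 379, 366 and 288 CPM in IFE.B and at 85.6, 138, 129, 216, 191 and 148 CPM in IFE.SB. It stood at 80.8, 212, 244, 177, 221 and 210.5 CPM in uHF.B and at 63.6, 142, 139, 122, 164 and 129 CPM in uHF.SB. In OB the Pgk1 level was 56.5, 312, 271, 134, 176 and 131 CPM. All 25 later values lay above the 0 h value of their class. The fold over 0 h was 1.31 to 5.52 at 4 h and 1.73 to 2.61 at 6 d across the 5 classes, and OB at 4 h was the highest, with 312 CPM (95% interval 293 to 332) against 56.5 CPM (95% interval 47.2 to 67.0) at 0 h. Within OB the subclusters OB, OB2 and lower bulge stood at 49.2, 62.0 and 75.4 CPM at 0 h and at 211, 399 and 309 CPM at 4 h, so these 3 subclusters were higher at 4 h.

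Ldha, which turns pyruvate into lactate, stood at 295, 857, 508, 630.5, 624 and 504 CPM in IFE.B and at 229, 547, 335, 464, 438 and 354 CPM in IFE.SB. It stood at 235, 595, 547, 359, 433 and 404 CPM in uHF.B and at 154, 377, 307, 235, 245 and 208 CPM in uHF.SB. In OB the Ldha level was 172, 335, 369, 309, 352 and 304 CPM. In IFE.B, IFE.SB, uHF.B and uHF.SB the 4 h library was the highest, and the 0 h library was the lowest in all 5 classes. The fold over 0 h at 4 h was 1.95 to 2.90, and in IFE.B the levels were 295 CPM (95% interval 289 to 302) at 0 h and 857 CPM (95% interval 846 to 867) at 4 h.

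Slc2a1, whose interfollicular values are given above, stood at 94.5, 54.8, 67.6, 78.0, 112 and 114 CPM in uHF.B and at 49.0, 31.9, 31.4, 38.2, 54.7 and 49.5 CPM in uHF.SB. In OB the Slc2a1 level was 102, 94.8, 45.3, 63.3, 67.7 and 106 CPM. In IFE.B, uHF.B and OB the 6 d library was the highest, and in OB the 16 h library was the lowest. At 4 h the fold over 0 h was 0.58 to 1.36, above 1 in IFE.B and IFE.SB only.

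Hk2, the inducible hexokinase, stood at 30.3, 41.6, 10.0, 21.6, 14.8 and 46.0 CPM in IFE.B and at 26.4, 46.8, 16.2, 39.3, 14.7 and 54.9 CPM in IFE.SB. In uHF.SB its level was 33.6, 46.4, 14.8, 23.5, 19.3 and 33.8 CPM, beside the OB and uHF.B values given above. At 16 h and at 4 d Hk2 lay below its 0 h level in all 5 classes, at 0.226 to 0.616 and 0.428 to 0.575 times that level. OB was the highest of the 5 keratinocyte classes at each time.

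Hif1a, the oxygen-regulated factor, stood at 183, 424, 138, 144, 165 and 239 CPM in IFE.B and at 87.5, 337, 78.2, 94.6, 90.8 and 118 CPM in IFE.SB. In uHF.SB its level was 60.7, 121, 53.1, 48.9, 47.2 and 66.4 CPM. In IFE.B, IFE.SB, uHF.B and uHF.SB the 4 h library was the highest, with 2.32 and 3.84 times the 0 h level in both interfollicular layers. In OB the level at 4 h equalled that at 0 h within counting error, 121 CPM (95% interval 109.5 to 134) against 124 CPM (95% interval 109.8 to 139), and 6 d was the highest. The OB, OB2 and lower bulge subclusters stood at 119, 136 and 117 CPM at 0 h and at 415, 414 and 278 CPM at 6 d.

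Vegfa stood at 45.6, 43.2, 9.59, 23.0, 22.1 and 25.2 CPM in uHF.B and at 16.8, 26.1, 6.54, 11.97, 22.6 and 18.4 CPM in uHF.SB. In OB the Vegfa level was 8.62, 19.0, 10.3, 13.6, 13.0 and 19.1 CPM. At 16 h it was the lowest in IFE.B, IFE.SB, uHF.B and uHF.SB. The uHF.B class alone was highest at 0 h, IFE.B was highest at 6 d, IFE.SB and uHF.SB were highest at 4 h, and OB was about equally high at 4 h and 6 d.

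**Figure D4:**
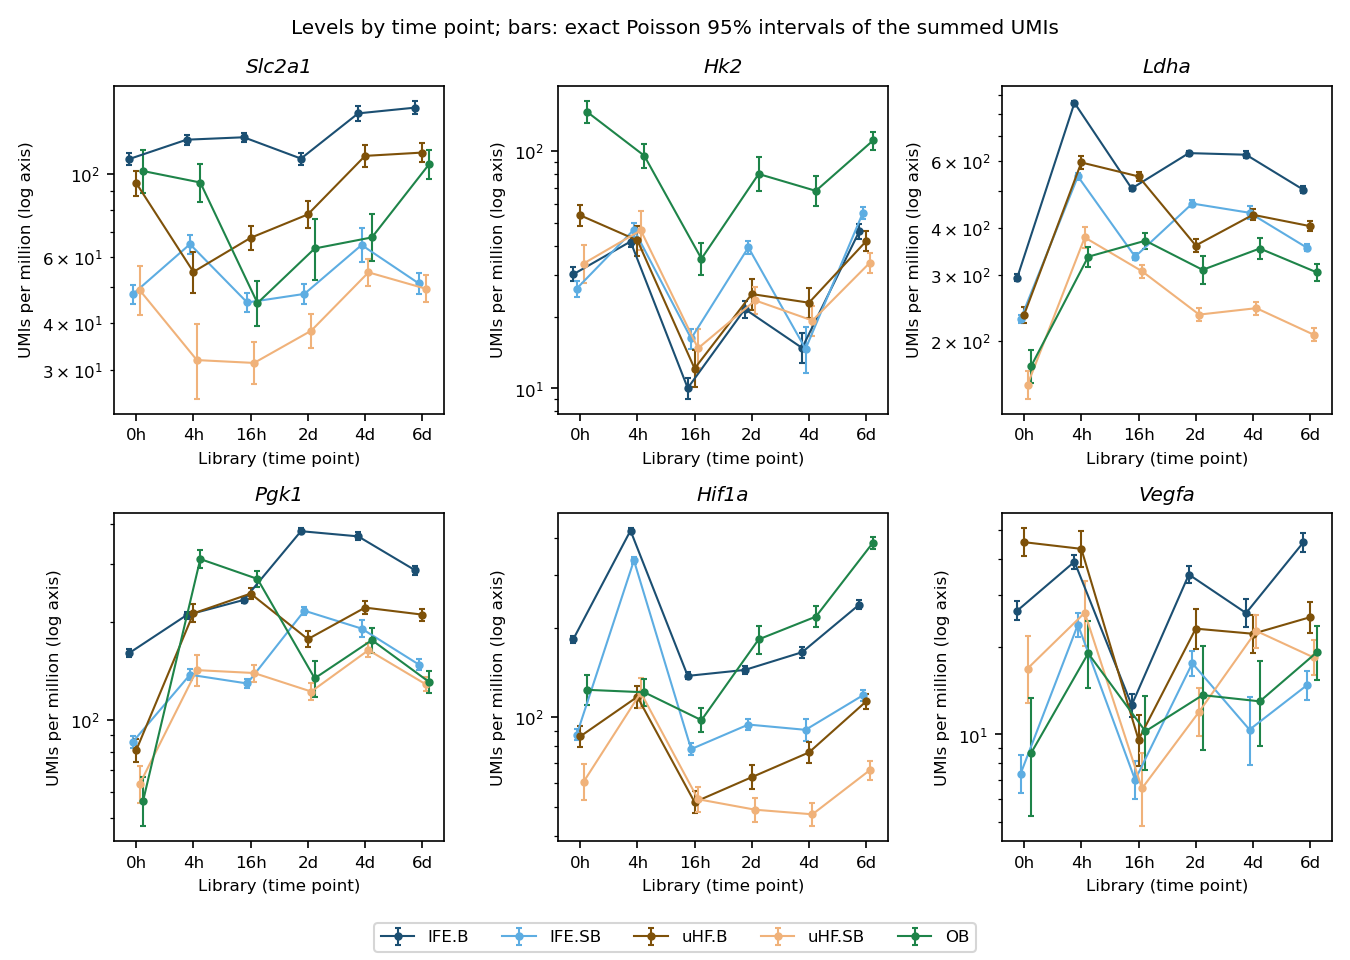
Levels (y axis, CPM on a log axis) of Slc2a1, Hk2, Ldha, Pgk1, Hif1a and Vegfa in the 6 libraries (x axis) of 5 keratinocyte classes, with exact Poisson 95% intervals as bars. Pgk1 and Ldha lie above their 0 h level at every later time in each class, and Hk2 dips at 16 h and 4 d.

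Another 4 genes, chosen after their values were seen, showed large steps at single time points. Pfkm, the muscle form of phosphofructokinase, stood at 6.54, 0.675, 5.84, 5.23, 6.32 and 4.89 CPM in IFE.B, resting on 178 UMIs at 0 h and 21 at 4 h. It stood at 4.91, 0.223, 5.19, 4.50, 4.79 and 4.91 CPM in uHF.B and at 12.5, 1.26, 6.41, 13.1, 5.61 and 6.45 CPM in OB. In all 5 keratinocyte classes its 4 h library was the lowest. The 4 h level was 0.103 times the 0 h level in IFE.B and 0.18 times in IFE.SB, and in uHF.B it rested on 1 UMI, or 0.223 CPM (95% interval 0.00564 to 1.24) against 4.91 CPM (95% interval 3.42 to 6.83). At the same time its paralogs Pfkp and Pfkl stood at 0.893 and 1.10 times that level in IFE.B. Slc16a1 went the other way, with 17.4, 92.1, 19.4, 33.1, 21.4 and 40.4 CPM in IFE.B, and its 4 h library was the highest in all 5 classes. Its fold at 4 h was 1.65 to 5.39 over the 5 classes. Ndufa4l2 was lower at 4 h than at 0 h in each of them, at 0.126 to 0.965 times the 0 h level. At 4 h the intervals of its thinned shares in uHF.B, uHF.SB and OB overlapped those of T cells. At 0 h that of uHF.B lay above, and the part of free RNA in these classes was not tested. The peptide hormone gene Adm stood at 30.3, 16.2, 12.2, 3.65, 11.8 and 13.5 CPM in IFE.B and at 15.3, 3.57, 1.96, 0.843, 0.738 and 3.63 CPM in uHF.B, and at 2 d it was at 0.0552 to 0.362 times its 0 h level. A few UMIs set the low follicle values, such as 0.843 CPM in uHF.B and 0.424 CPM in uHF.SB at 2 d. In IFE.SB at 2 d 1 cell held 19 of the 72 Adm UMIs.

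**Figure D5:**
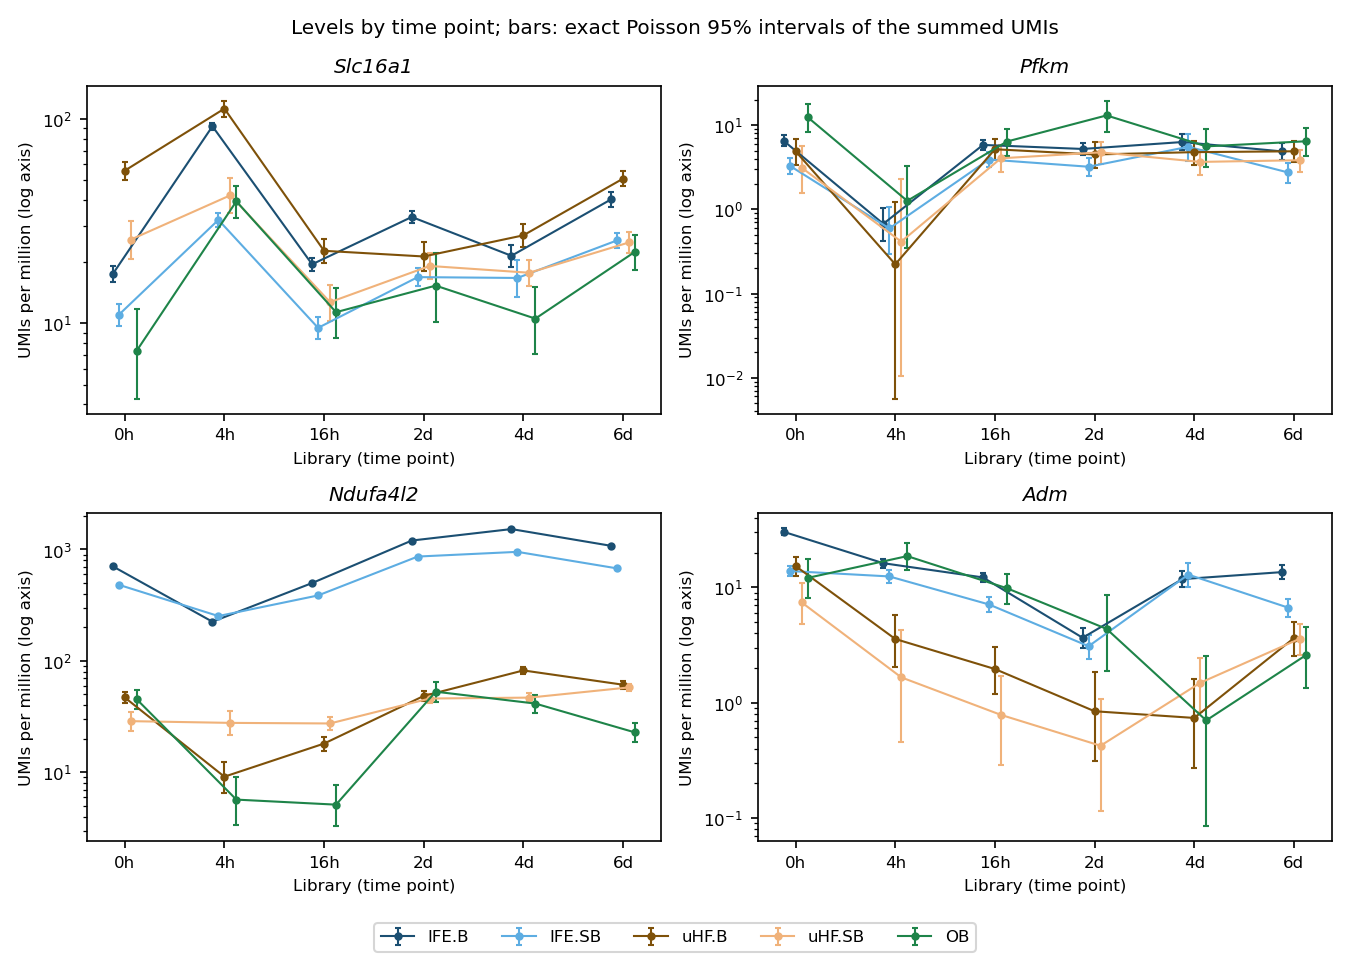
Levels (y axis, CPM on a log axis) of Slc16a1, Pfkm, Ndufa4l2 and Adm in the 6 libraries (x axis) of 5 keratinocyte classes, with exact Poisson 95% intervals as bars. Pfkm has its lowest point and Slc16a1 its highest at 4 h in every class, and Adm lies below 0 h at 2 d and 6 d.

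A rule of size stood in for a test between 2 libraries. A gene with at least 20 UMIs over both libraries was counted when its CPM was at least 2-fold above or below 0 h, and the 5 counts run from 4 h to 6 d. In IFE.B, 6, 0, 5, 9 and 3 of the 33 genes counted were at least 2-fold higher, against 15.6%, 5.62%, 3.18%, 3.44% and 2.74% of all genes. Those at least 2-fold lower were 6, 6, 3, 3 and 1, against 27%, 10.2%, 10.7%, 8.24% and 4.67% of all genes. TMM scaling gave 7, 0, 6, 7 and 3 higher and 4, 6, 2, 3 and 1 lower. The share of these genes that were higher was above the share of all genes at 4 of 5 times and the share that were lower at 2 of 5. At 4 d the higher share was 27.3% of 33 (Ldha, Pgam1, Pgk1, Slc16a3, Egln1, Egln3, Car9, Ndufa4l2 and P4ha2). In IFE.SB, 8, 1, 8, 6 and 6 of the 32 to 33 genes counted were at least 2-fold higher, against 16.6%, 6.29%, 5.82%, 8.21% and 4.06% of all genes. Those at least 2-fold lower were 3, 1, 3, 1 and 1, against 17.6%, 7.05%, 10.1%, 7.21% and 4.14% of all genes. TMM scaling gave 7, 0, 8, 5 and 6 higher and 4, 2, 3, 1 and 0 lower. The 8 higher genes at 2 d were Gapdh, Pgk1, Ldha, Slc16a3, Egln1, Vegfa, Car9 and P4ha2.

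In uHF.B, 7, 7, 4, 9 and 9 of the 30 to 32 genes counted were at least 2-fold higher, against 18.3%, 17.4%, 8.29%, 15.2% and 8.88% of all genes. Those at least 2-fold lower were 8, 8, 5, 5 and 1, against 21.5%, 11.1%, 9.47%, 9.28% and 7.34% of all genes. TMM scaling gave 6, 5, 1, 7 and 8 higher and 8, 9, 6, 5 and 2 lower. In this class the share of higher genes was above that of all genes at 5 of 5 times and the share of lower genes at 4 of 5. With TMM scaling at 2 d the higher share was below the 5.37% of all genes. Gapdh, Pgam1 and Pgk1 were among the higher genes at each time but 4 h (Pgam1 and Pgk1 also then), and with TMM scaling Pgam1 alone was at 2 d. In uHF.SB, 3, 3, 1, 7 and 6 of the 28 to 31 genes counted were at least 2-fold higher, against 18.1%, 13%, 7.91%, 12.8% and 8.99% of all genes. Those at least 2-fold lower were 4, 7, 2, 2 and 2, against 15.1%, 6.88%, 8.12%, 9.02% and 10.7% of all genes. TMM scaling gave 3, 1, 1, 4 and 7 higher and 5, 9, 2, 3 and 0 lower. Ldhb was 2-fold lower at 4 h and 2-fold higher at 2 d, 4 d and 6 d. In OB, 3, 4, 3, 9 and 10 of the 30 to 32 genes counted were at least 2-fold higher, against 17%, 14.4%, 7.21%, 16.1% and 11.4% of all genes. Those at least 2-fold lower were 5, 5, 2, 4 and 1, against 21.5%, 8.53%, 6.28%, 5.33% and 5.15% of all genes. TMM scaling gave 3, 2, 2, 5 and 5 higher and 5, 6, 3, 4 and 5 lower. At 4 d both higher counts include Eno3, whose level there rested on 1 cell. Without that cell Eno3 stood at 4.58 CPM at 4 d, against 3.02 CPM at 0 h. At 6 d the split in OB thus went from 10 higher and 1 lower to 5 and 5 with TMM scaling, and the 10 were Pfkfb3, Slc16a1, Slc16a3, Eno1, Pgam1, Pgk1, Egln1, Hif1a, Vegfa and P4ha2. On the CPM scale the higher share was above that of all genes at 4 of 5 times in IFE.SB, 2 in uHF.SB and 3 in OB. The lower share was so at 0, 1 and 3 of 5 times. The TMM counts have no share of all genes beside them, except at 2 d in uHF.B.

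A smooth time course over the 6 libraries, fitted with edgeR and tested with 2 residual degrees of freedom, called none of the genes in any keratinocyte class. It tested 33 genes in IFE.B and in IFE.SB, 32 in uHF.B, 31 in uHF.SB and 31 in OB. It called 0 of 12950, 12441, 11636, 11664 and 10839 genes of any kind in these classes, so 0% of genes were called and the test had no positive background to compare with. At an unadjusted p under 0.05 the counts of these genes were 1, 2, 1, 4 and 2. Of all genes, 0.68%, 2.54%, 2.1%, 3.96% and 3.82% reached that level. The 2 genes in OB include Eno3, whose value at 4 d rested on 1 cell. DESeq2 called Slc16a3 in IFE.SB, Ldhb in uHF.SB and none in the other 3 classes. On simulated counts for IFE.B the same test recovered 40.5% of genes with a 2-fold change and 100% of those with a 4-fold change. Whether the simulated spread matched that of the real libraries was not tested, so the lack of calls does not exclude changes of either size. Without the 0 h library 7 genes were called in OB, 2 in uHF.SB and 7 in T cells. In T cells 0 of 25 and in Langerhans cells 0 of 22 genes were called, with 0 and 1 at an unadjusted p under 0.05 and 0 in each by DESeq2. The background there was 0.0514% and 0.0492% of all genes called, and 3.21% and 2.94% at an unadjusted p under 0.05.

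In melanocytes, the pigment cells, Gapdh and Pgam1 stood higher from 2 d on than before, with their highest level at 4 d. Of 15 genes with enough counts edgeR called these 2, or 13.3%, against 4.29% of 4401 genes, and DESeq2 called Gapdh alone. At an unadjusted p under 0.05 there were 9 of the 15, against 15.2% of all genes. Gapdh stood at 196, 218, 262, 825, 1240.4 and 871 CPM and Pgam1 at 78.4, 112, 166, 264, 421 and 296 CPM in 29, 87, 77, 51, 264 and 66 cells. Both were low at 0 h, 4 h and 16 h and high from 2 d on, with no overlap. The linear trend over the 6 days was 2.57 for Gapdh and 1.92 for Pgam1 on the log2 scale. The edgeR spline test, which covers any smooth change and not the linear trend alone, gave adjusted p of 0.00577 and 0.0281. Median UMIs per melanocyte were 2333, 1824, 1911, 5058, 4442 and 3708, melanocyte markers summed to 3934, 5336, 4656, 10047, 28686 and 21832 CPM, and markers of IFE.B to 4156, 1105, 2098, 1195, 559.8 and 1190.2 CPM. The part of depth and of keratinocyte RNA in the trend was not tested. Leaving out the 4 d library lost Pgam1, leaving out the 16 h library lost both, and leaving out the 4 h library gave 6 calls.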

How the data were processed

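Single-cell RNA was measured in 6 libraries, 1 per time point. The deposited matrices give unnormalized UMI counts for each gene in each called barcode, and per the submitters' processing notes the authors used Cell Ranger 6.1.2 with mm10. The total was 72634390 to 112370376 UMIs per library. Cells with 500 to 7000 genes and at most 10% mitochondrial UMIs were kept (55177 of 61031 barcodes), and 4675 were removed as doublets by Scrublet score (scanpy 1.11.5) at 0.8% per 1000 barcodes, whereas Scrublet's own threshold marked 1168. Cells were clustered with Seurat 5.3.0 on 2000 variable genes and 30 principal components after integration, without 518 genes that included the 33. The lower gene limit, the mitochondrial limit and the anchor-based integration follow the study's methods. The study set its upper gene limit by sample and predicted doublets with scDblFinder, whereas 1 upper limit and Scrublet were used here, and cell names were rebuilt. Clusters were named by markers, with at least 3 detected. UMIs were summed per class and library, for classes with at least 20 cells.

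Time courses (natural spline, 3 degrees of freedom) and contrasts of classes (library as block) were tested with edgeR 4.0.16 quasi-likelihood on all genes passing its filter, with Benjamini-Hochberg adjustment and an adjusted p under 0.05, and DESeq2 1.42.0 was an alternative. SEs are the SD of the log2 differences per library divided by the square root of the number of libraries. Since each time point was 1 library, p-values measure only the spread between these libraries, which held mixed cells of 2 mice. Scripts were tested on simulated data. Intervals are exact Poisson or binomial at 95%. A count of 0 allows up to 3 UMIs. The members and lists were chosen with earlier results of these data known. Full values were given for Slc2a1, Hk2, Ldha, Pgk1, Hif1a and Vegfa, for genes called over time, and for genes called in a contrast with a log2 difference of at least 1 and 1 sign in 6 libraries. Other genes with full values were chosen after their values were seen. A contrast of the inner root sheath or hair matrix with OB was not run, since fewer than 3 libraries had 20 cells of both.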

Additional observations from a re-analysis of the deposited data

Results flagged for a closer look

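The step from the basal to the suprabasal layer differed between the upper follicle and the interfollicular epidermis for 6 of 33 genes, by an interaction term in edgeR that called 15.6% of 12203 genes, so these genes were called about as often as the background. It was largest in size for Car9, Ldhb and Egln3, each of which differed by more than 1 on the log2 scale. For Ldhb the difference (upper follicle minus epidermis) was 1.17 (edgeR adjusted p = 0.00597). Ldhb was lower in the suprabasal layer by a log2 difference of -1.28 in the epidermis and was -0.13 in the upper follicle, where it stood at 24.8, 6.91, 44.6, 52.4, 112 and 87.8 CPM in uHF.B and at 18.2, 4.98, 24.6, 62.1, 105 and 69.3 CPM in uHF.SB. For Egln3 the difference was -1.09 (edgeR adjusted p = 0.0282), from 1.00 in the epidermis and -0.11 in the upper follicle. For Car9 it was 2.31 (edgeR adjusted p = 0.0249), and its upper follicle values rested on 1, 3, 8, 6, 9 and 6 UMIs in uHF.B and 2, 5, 1, 4, 5 and 1 in uHF.SB, too few for a contrast of its own. The other 3 genes were P4ha1 (0.72), Aldoa (0.45) and Pfkp (0.40).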

How the results depend on the processing

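Direction held in all alternatives that could be run: of the log2 differences of called genes, 1027 kept their side of the threshold, 122 were past it no longer and none reversed. Counts of genes stayed within 1.5 times in 323 cases and moved in 53, and the cause was not tested. Cell classes were re-clustered with a doubled resolution and another seed, and counts were also renormalized and refiltered.

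Over the time course, DESeq2 called 1 gene in IFE.SB, 1 in uHF.SB and 1 in melanocytes. With time as log2(hours + 1) 1 gene was called in uHF.SB, 5 in OB and 8 in melanocytes, and with time as a rank 2 in OB and 7 in melanocytes. Leaving out 1 library gave 0 to 1 in uHF.B (without 0 h or 4 h), 0 to 2 in uHF.SB (2 without 0 h, 1 without 6 d), 0 to 7 in OB (7 without 0 h), 0 to 7 in T cells (7 without 0 h, 1 without 4 h, 3 without 2 d, 2 without 6 d), 0 to 3 in Langerhans cells (3 without 0 h) and 0 to 6 in melanocytes (6 without 4 h, 0 without 16 h, 1 without 4 d). It gave 0 in IFE.B and IFE.SB each time.

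Between cell classes, leaving out 1 library gave 5 to 6 genes higher and 5 to 11 lower in OB than in uHF.B (5 lower without 4 d). Of cycling OB cells, 0 to 1 genes were higher (1 without 16 h) and 0 to 1 lower (0 without 4 d or 6 d). In cycling cells it gave 2 to 5 genes higher in uHF.B (2 without 4 d) and 3 to 7 in IFE.B (4 without 16 h, 3 without 4 d). With a cycling call at 4 or more UMIs, 4 genes were higher and 2 lower in OB. At 1 or more UMIs 0 were lower in OB and 4 higher in IFE.B. Without the count filter 2 were lower in OB, and 0 with DESeq2 or the stricter cell filter.

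For the 2-fold rule with TMM scaling, IFE.SB at 16 h had 0 genes higher and 2 lower, and at 6 d 0 lower. uHF.B had 1 higher at 2 d and 2 lower at 6 d. uHF.SB had 1 higher at 16 h, 4 higher at 4 d and 0 lower at 6 d. OB had 2 higher at 16 h, 5 higher at 4 d (with Eno3, which rested on 1 cell), and 5 higher and 5 lower at 6 d. With a minimum of 50 UMIs, uHF.SB had 0 lower at 2 d and 1 lower at both later times, and OB had 0, 1 and 0 lower at these 3 times.

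Bulge subclusters, the Eno3 cell and the rescaled levels were alternatives chosen after seeing the data. The contrast of the inner root sheath or hair matrix with OB was not run. No paired analysis was possible because each time point was 1 library, and the library was already the block between classes. The test over time had 2 residual degrees of freedom, and in simulated IFE.B counts it recovered 40.5% of 2-fold and 100% of 4-fold changes. It called 0 genes of any kind in the real keratinocyte classes, and whether the simulated spread matched the real one was not tested.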
